A study of Mus musculus with 12 samples.

Results

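The genes described here are those measured when an EZH2 construct was added to mouse breast tumour cells that already carried a dominant negative TCF4 construct. A gene was included if it had at least 10 counts in at least 3 of the 6 libraries of the groups labelled DNTCF4-EZH2 and DNTCF4-Vector, which kept 14565 of 55492 features. Of these, 76 passed only through the DNTCF4-EZH2 libraries and 19 only through the DNTCF4-Vector libraries. The cells were CCN6KOT, primary tumour cells that the labels describe as spindle metaplastic, grown in serum-containing medium, infected with lentivirus and selected with puromycin. RNA-seq covered 12 libraries in 4 groups of 3. PPGS-Vector received a control lentivirus, DNTCF4-Vector the dominant negative TCF4 construct, DNTCF4-EZH2 that construct together with EZH2, and DNTCF4-SET that construct together with one labelled SET, a name the labels do not expand, like PPGS. All 4 groups thus share the tumour background, and infection and selection of this kind. How many rounds of infection or selection each group had is not known here. They represent a single cell line, and the labels give no separate clones, animals or cultures for the 3 libraries of a group. The p-values therefore cover the spread of these libraries alone, and that spread may be technical.

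EZH2 is the catalytic subunit of Polycomb repressive complex PRC2, which also holds EED and SUZ12 and methylates H3K27, a mark associated with silent genes. TCF4, encoded by Tcf7l2, binds DNA and recruits beta-catenin to activate Wnt target genes, and dominant negative forms lack that recruitment. Interferons signal through cell surface receptors and JAK kinases to transcription factors that bind the interferon-stimulated response element (ISRE) in the promoters of antiviral genes. Many mitotic genes carry in their promoters a motif called CHR, often with CCAAT boxes.

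Levels are given in CPM, reads relative to the library total and scaled between libraries, as the values of replicates 1, 2 and 3 or as mean ± SD (n = 3), differences as log2 of DNTCF4-EZH2 over DNTCF4-Vector with a standard error (SE) unless another group is named, and a gene is called changed when the adjusted p from edgeR's quasi-likelihood test was under 0.05. The libraries held 23597545 to 33999982 counts, and 3 counts correspond to 0.0882 to 0.127 CPM. Over the 6 libraries, the leading principal component of expression held 61.4% of the variance and separated the groups, and the next, with 20%, set DNTCF4-Vector replicate 1 apart. As chi-square over degrees of freedom, that library differed by 20.7 and 13.1 from replicates 2 and 3 of its group, which differed by 3.33 from each other. In DNTCF4-EZH2, replicates 1 and 2 differed most, at 16.3. Of the general markers, Krt8 (82.8 ± 4.2 and 83.6 ± 3.94 CPM in DNTCF4-Vector and DNTCF4-EZH2) and Krt18 (247 ± 14.2 and 255 ± 9.05 CPM), keratins of simple epithelia, were present. Of the 16 listed mammary epithelium markers 8 were tested, 4 rose and none fell (median 0.45), with summed levels of 337.2 to 376.2 and 361.5 to 383.3 CPM. The rises were those of the keratin gene Krt19 (12.3 ± 2.37 to 17.8 ± 0.701 CPM), the basal factor gene Trp63 (0.88 ± 0.131 to 1.44 ± 0.339), the estrogen receptor gene Esr1 (3.12 ± 0.529 to 4.03 ± 0.323) and the adhesion gene Epcam (0.223 ± 0.1 to 0.679 ± 0.0373), which met the count rule only through DNTCF4-EZH2. Of the 22 tested genes of a wider epithelial list 7 rose and 2 fell. The basal keratins Krt5 and Krt14 and the milk protein gene Csn2 had at most 9 counts in any library, and Ptprc, the general leukocyte gene, at most 1 in these 6. The Cre feature of the table had 6, 4 and 6 counts in DNTCF4-Vector and 7, 3 and 7 in DNTCF4-EZH2, and 4 fluorescent protein features had none. Ccn6, whose name is in that of the line, had 1 count in DNTCF4-EZH2 replicate 1 and none elsewhere.

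The targeted gene separated DNTCF4-EZH2 from DNTCF4-Vector and PPGS-Vector, but not as the only raised group. Ezh2 (ENSMUSG00000029687, chromosome 6, 47530139 to 47595341, minus strand, GRCm38) stood at 68.4, 62.6 and 64.9 CPM in the DNTCF4-Vector libraries and at 469, 429 and 452 in those of DNTCF4-EZH2, against 57.6, 56.5 and 59.4 in PPGS-Vector. Every DNTCF4-EZH2 library lay far above all 6 libraries of DNTCF4-Vector and PPGS-Vector. Ezh2 was raised in DNTCF4-SET too, slightly above DNTCF4-EZH2, as given further below. The rise was 6.89-fold (log2 2.79, SE 0.05, adjusted p = 8.3e-15), and counts per gene do not separate the cell's own Ezh2 from the construct. Tcf7l2, the gene of TCF4, was at 36.8, 41.3 and 41 CPM in DNTCF4-Vector and 46.6, 46.3 and 43.5 in DNTCF4-EZH2, and its difference of 0.19 did not pass the test (adjusted p = 0.142), although it did without a filter on low counts (adjusted p = 0.015). Of the 13 tested PRC2 genes, Ezh2 was the only one that rose, although Phf19, an accessory subunit gene, was called higher without DNTCF4-Vector replicate 3 (0.35, adjusted p = 0.0482). Eed (49.8 ± 0.394 to 44.7 ± 2.34 CPM, log2 -0.15), which binds the methylated histone, and the accessory subunit gene Aebp2 (139 ± 6.34 to 121 ± 3.3 CPM, log2 -0.19) fell slightly, and the call for Eed is lost in several alternative settings (adjusted p from 0.0578 to 0.0769). Suz12, Ezh1, Rbbp4, Rbbp7, Jarid2 and Mtf2 had log2 differences between -0.10 and -0.02 without a call. Ezh1 was called lower without DNTCF4-Vector replicate 1 (-0.14, adjusted p = 0.0114), and Mtf2 without replicate 2 (-0.18, adjusted p = 0.0366).

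Interferon response genes made the largest falls among genes with separate groups and at least 1 CPM in the higher group, predicted gene models left out. Most mitotic genes and many matrix genes rose by smaller amounts. In total 3850 of 14565 genes were called (26.4%), 1986 of them higher (13.6%) and 1864 lower (12.8%) in DNTCF4-EZH2. The median absolute log2 difference of called genes was 0.27, and 3225 of them differed by less than 1.5-fold. Changes of 2-fold or more numbered 234, of which 103 were rises and 131 falls. Of the falls, 60 were members of the interferon and MHC class I lists described below. Among these members, Epsti1 and Slfn4 met the count rule only through DNTCF4-Vector, where they are high. Of the 60 falls at 10 CPM or more in the higher group, 45 were members of these lists. The lists hold 64, 16, 22, 23 and 23 of the 14565 tested genes. They were chosen with earlier results of these data known, so these counts are a description and not separate support. The balance of rises and falls of 2-fold or more differed with level. Under 1 CPM in the higher group there were 45 rises and 27 falls, of which 27 and 10 met the count rule only through the group where they are high. Between 10 and 100 CPM there were 8 rises and 48 falls, and from 100 CPM upwards 3 rises and 12 falls. The libraries of the groups did not overlap in 5739 genes (39.4%). Without DNTCF4-Vector replicate 1 the calls numbered 4552, 2264 higher and 2288 lower, and without DNTCF4-EZH2 replicate 3 they numbered 2833. In bulk RNA, a smaller number of cells that express a gene and less RNA of it per cell cannot be told apart.

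**Figure D1:**
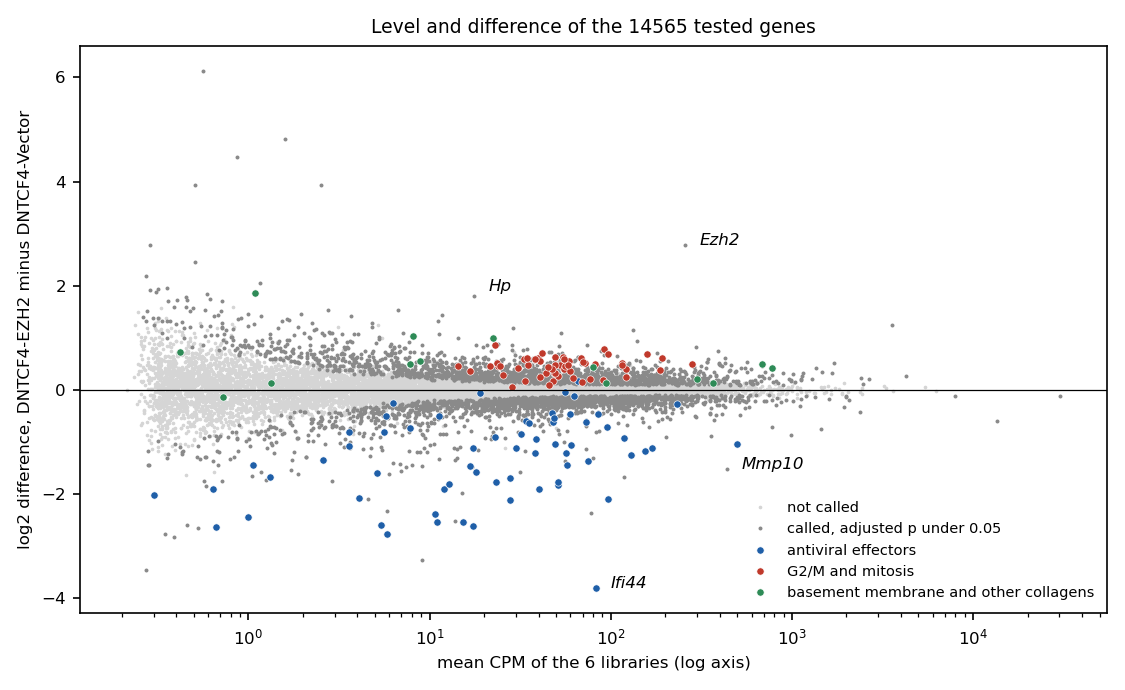
Each point is 1 of the 14565 genes, placed by its mean level over the 6 libraries (CPM, log axis) and its log2 difference, DNTCF4-EZH2 minus DNTCF4-Vector, with antiviral effectors in blue, G2/M genes in red and basement membrane and other collagens in green. The blue points extend down to Ifi44 at -3.79, the red points form a narrow band above 0, and Ezh2 lies apart at 2.79.

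The interferon-responsive promoters are shown first, because interferon response genes made the largest falls among well-expressed genes. Below, the stretch from 40 bases before an ISRE core (GAAANNGAAA or its reverse complement TTTCNNTTTC) to 40 bases after it, or to the transcription start where that comes first, is written in the direction of transcription. The core nearest the start sets the stretch, and every core within it is in capitals, so that overlapping cores form a single run. The sequences come from the RefSeq promoter table of build GRCm38.p6 and belong to the called interferon genes with the smallest p whose 250 upstream bases hold the core. None of the genes printed is among the 10 largest falls named further below. Of those 10, Oas1g, Ifit3, Ifit3b and Trim30d hold the core upstream, and Ifi44, Phf11d and Slfn4 do not.
Gbp3 (chr3:142559965-142560043, plus strand): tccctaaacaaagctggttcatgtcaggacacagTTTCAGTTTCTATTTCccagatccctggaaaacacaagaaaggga
Oas3 (chr5:120777685-120777774, minus strand): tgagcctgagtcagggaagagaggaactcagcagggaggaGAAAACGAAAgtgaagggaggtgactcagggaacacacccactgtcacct
Oas1a (chr5:120907526-120907579, minus strand): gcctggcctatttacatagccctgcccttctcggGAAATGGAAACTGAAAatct
Apol9b (chr15:77729001-77729071, plus strand): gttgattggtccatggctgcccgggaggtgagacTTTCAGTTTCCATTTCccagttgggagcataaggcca
Isg15 (chr4:156200835-156200924, minus strand): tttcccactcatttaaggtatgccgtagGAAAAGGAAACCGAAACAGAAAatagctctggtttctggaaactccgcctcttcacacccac
Bst2 (chr8:71537547-71537636, minus strand): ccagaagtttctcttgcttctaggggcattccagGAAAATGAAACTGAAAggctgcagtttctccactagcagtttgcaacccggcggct
The nearest cores begin between 14 and 124 bases before the start site. Oas3 holds 1 core, Isg15 3 overlapping ones and each of the other genes 2. In Gbp3 and Apol9b the cores lie on the opposite strand. The stretches of Oas3, Isg15 and Bst2 end 25, 16 and 74 bases before the start, and the others reach it. Over all 32851 upstream windows of the promoter table, 2.98% hold such a core. Among promoters of tested antiviral effector genes it was 25 of 64 (39.1%), and among those of guanylate-binding protein and immunity-related GTPase genes 9 of 11 (81.8%). A match is a description of letters, not of a bound site.

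Transcripts of the interferon genes themselves were at or near 0 counts. None of the 21 interferon ligand genes in the table could be tested, and the highest count of any of them was 7 in a library, for Ifnz. Ifnb1, the interferon made by most cell types on sensing viral nucleic acid, had 0 counts in all DNTCF4-Vector libraries and 0, 0 and 2 in DNTCF4-EZH2, and Ifng had 0 in all 12 libraries. The summed ligand level was 0.0636 to 0.341 CPM in DNTCF4-Vector and 0.163 to 0.293 in DNTCF4-EZH2, ranges that overlap.

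The receptors and kinases differed little, while several downstream factors fell. Of the 23 tested genes for interferon receptors, kinases and factors, 2 rose and 6 fell, with a median log2 difference of 0.03, against -0.0001 over all genes. Ifnar1, a chain of the type I interferon receptor, was at 103, 103 and 108 CPM in DNTCF4-Vector and 107, 108 and 108 in DNTCF4-EZH2 (log2 0.05, adjusted p = 0.376). Its partner chain Ifnar2 rose slightly, from 144 ± 6.14 to 163 ± 3.04 CPM (log2 0.17), as did the interferon gamma receptor gene Ifngr2 (0.14), whose call several settings lose (adjusted p up to 0.0766). The kinase genes Jak1, Jak2 and Tyk2 had log2 differences of 0.03, 0.06 and 0.13 and were not called, but Jak2 was called higher without DNTCF4-Vector replicate 1 and Tyk2 without replicate 2 (adjusted p = 0.00859 and 0.0371).

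Irf9, a DNA-binding transcription factor of the type I interferon response, went from 42.3, 50.4 and 47.9 CPM to 21.7, 19.8 and 21, a 2.25-fold fall. Irf7, the factor that amplifies interferon production, went from 153, 195 and 189.7 CPM to 54, 57.8 and 58.3, a 3.17-fold fall (log2 -1.66, SE 0.07, adjusted p = 1.12e-10). DNTCF4-Vector replicate 1 was the lowest of its group for both Irf9 and Irf7, and the groups remained apart. Usp18, the feedback inhibitor of the type I receptor, was at 24.9, 24.8 and 20.7 CPM and then 3.89, 4.38 and 4.05, which was 5.72-fold lower. Stat2 and Irf1 fell less, by log2 -0.33 and -0.25, and Stat3 (0.02), Irf3 (0.01), Irf8 (0.08) and Socs3 (0.03) were not called.

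**Figure D2:**
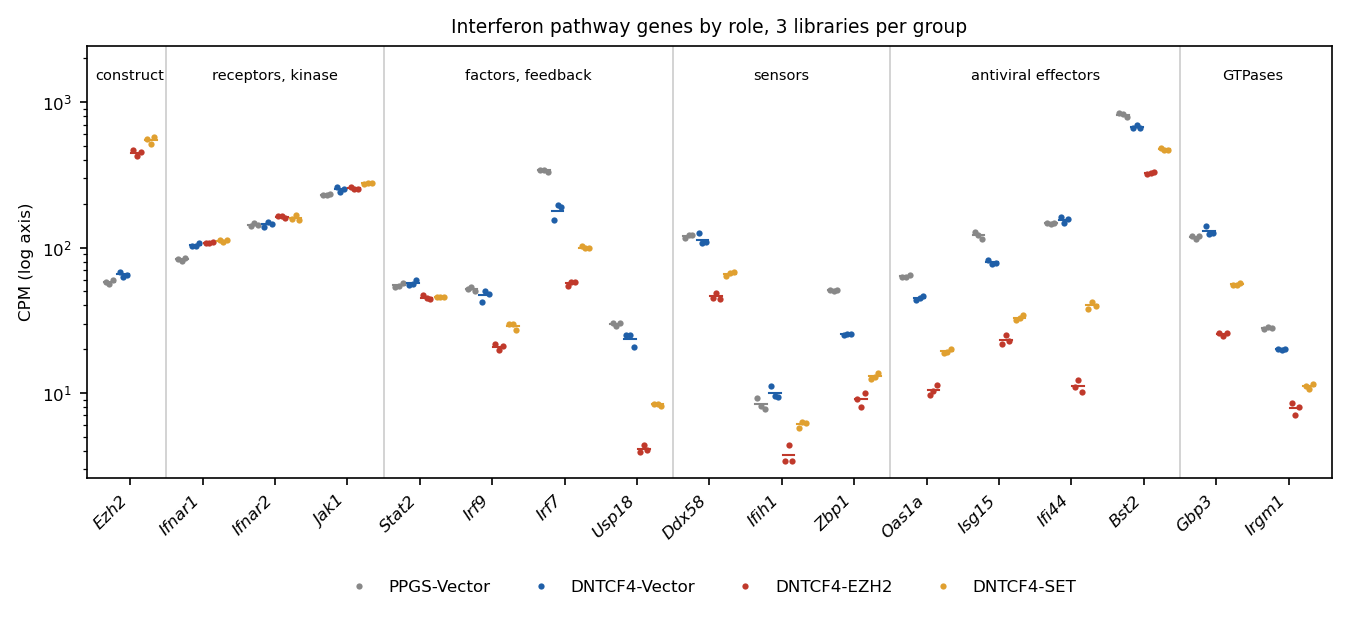
Level of Ezh2 and of interferon pathway genes (CPM, log axis) in each of the 12 libraries, where points are libraries, short lines are group means and colours are the 4 groups. The receptor and kinase genes Ifnar1, Ifnar2 and Jak1 sit at similar heights in all groups, while the other genes right of Jak1 are lowest in DNTCF4-EZH2, except Stat2, whose DNTCF4-EZH2 and DNTCF4-SET libraries overlap.

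Sensors of nucleic acid fell in part, and their signal adaptors were not called. Of 22 tested genes of the sensor list, which also holds adaptors, kinases and other enzymes, 9 fell and none rose (median -0.29). Sting1 was, however, called higher without a filter on low counts (adjusted p = 0.0424) and Tlr4 without DNTCF4-Vector replicate 1 (0.0142). Ddx58, which encodes the RNA sensor RIG-I, was 113 ± 10.1 CPM in DNTCF4-Vector and 46.2 ± 2.39 in DNTCF4-EZH2, and Ifih1, encoding MDA5, 10.0 ± 0.962 and 3.74 ± 0.554. Zbp1, a sensor of Z-form nucleic acid, went from 25, 25.6 and 25.4 CPM to 9.11, 8.03 and 9.99, a 2.8-fold fall with no overlap. Ifi203, Dhx58, Trim25, Ifi204, Adar and Samhd1 fell by log2 -1.35, -1.06, -0.72, -0.70, -0.57 and -0.15. Of the adaptors and kinases that carry the sensors' signal, Mavs was at 57.6 ± 2.89 and 60.0 ± 0.528 CPM, Tbk1 at 35.5 ± 1.76 and 35.4 ± 0.911, and Myd88 at 19.3 ± 0.917 and 17.4 ± 0.593, with no call.

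Antiviral effectors fell almost throughout. Of 70 listed genes 64 were tested, 59 fell and none rose, with a median of -1.19, and their summed level was 4125 to 4167 CPM in the DNTCF4-Vector libraries and 2046 to 2072 in those of DNTCF4-EZH2. Among the falls, Epsti1 (-2.01) and Slfn4 (-2.64) met the count rule only through DNTCF4-Vector, where they are high. Ifi44 (ENSMUSG00000028037, chromosome 3, 151730922 to 151749960, minus strand), an interferon-induced gene of uncertain molecular function, had the largest fall of the well-expressed named genes. It stood at 161, 147 and 156 CPM in DNTCF4-Vector and 11, 12.3 and 10.2 in DNTCF4-EZH2, 13.9-fold lower (log2 -3.79, SE 0.06, adjusted p = 2.68e-15). Oas1a, which encodes an antiviral oligoadenylate synthetase, was at 43.6, 45 and 46.1 CPM and then 9.6, 10.3 and 11.3. All 3 Oas1a values in DNTCF4-EZH2 were far below the lowest in DNTCF4-Vector, a 4.32-fold fall, and the related Oas3 and Oasl2 fell 3.75-fold and 4.29-fold.

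Isg15, a ubiquitin-like modifier, went from 81.4, 77.3 and 78.4 CPM to 21.8, 24.9 and 22.6 (3.42-fold lower). Bst2, the tether that holds budding virus at the cell surface, went from 662, 691 and 665 CPM to 322, 328 and 330.3 (2.06-fold lower). Neither gene had overlapping libraries, although the size of the fall differed. The dynamin-like GTPase gene Mx2 fell by log2 -2.54, the virus entry inhibitor gene Ifitm3 by -1.36, the RNA-dependent kinase gene Eif2ak2 by -0.93 and Ifit2, a binder of foreign RNA, by -0.54. Among the 5 tested effectors without a call were Ifitm2 (0.16), Isg20 (-0.06), Slfn9 (-0.03) and Ifi27 (-0.11). Ifitm2 was called higher in 3 other settings (adjusted p from 0.0108 to 0.0454). Reads of close copies such as the Oas1, Ifit, Apol9, Slfn and Gbp genes are shared between them by the counting, so their separate values are uncertain.

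The GTPases of cell-autonomous defence fell with the effectors. Of 16 tested guanylate-binding protein and immunity-related GTPase genes 15 fell and none rose (median -1.21). Gbp3 (ENSMUSG00000028268, chromosome 3, 142560026 to 142573209, plus strand) went from 141, 124 and 127 CPM to 25.7, 24.7 and 26, 5.11-fold lower (SE 0.05 on the log2 scale, adjusted p = 7.44e-14). Irgm1 and Irgm2, regulators of the other immunity-related GTPases, fell by -1.34 and -1.45, and Gbp7 and Gbp4 by -1.13 and -0.45. The remaining member, Gbp8, was under 1 CPM in every library and had a difference of -0.56 (adjusted p = 0.155).

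Genes of antigen presentation by MHC class I changed less. Of 23 tested genes 9 fell and 2 rose (median -0.06). Among the falls, all small, were the peptide transporter gene Tap1 (-0.43), the immunoproteasome gene Psmb8 (-0.26), the proteasome activator gene Psme1 (-0.31) and the chaperone gene Calr (-0.18). The rises were those of the nonclassical heavy chain genes H2-M3 (0.34) and H2-Q7 (0.12). B2m, the shared light chain, was at 1806 ± 115 and 1829 ± 76.6 CPM and the heavy chain gene H2-K1 at 403 ± 2.98 and 425 ± 4.65, neither called. H2 genes are near copies of each other, so their small differences are uncertain.

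Members with and without an ISRE core were among the genes that fell. Of 116 interferon and MHC list members with a promoter in the RefSeq table, 40 held the core in the 250 upstream bases, and 31 of these fell (77.5%, median -1.16). Of the 76 without it 45 fell (59.2%, median -0.36). The core was upstream of 22 of 51 antiviral effector genes and 9 of 10 GTPase genes. It was upstream of 3 of 16 genes of the sensor list, 3 of 19 receptor, kinase and factor genes and 3 of 20 MHC genes. The genes with and without the core thus differ in list, and the part of the core in the difference was not tested. Among 10520 tested genes with a promoter, 13.7% were called lower and 14.2% higher. The core was present upstream of 294 tested genes outside those lists, of which 60 were lower (20.4%) and 32 higher. At 2-fold or more, that group held 3 falls and 2 rises, singled out after their values were seen. The falls were Ifi207 (24 ± 0.34 to 6.08 ± 0.101 CPM), Ifi214 (0.611 ± 0.191 to 0.0837 ± 0.0449) and Mndal (12.3 ± 1.62 to 5.36 ± 0.174), all of the interferon-inducible p200 family, and the rises Gstt1 (6.34 ± 0.758 to 17.2 ± 0.954) and Adgrl3 (1.14 ± 0.413 to 2.62 ± 0.192). Ifi214 met the count rule only through DNTCF4-Vector, where it is high.

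**Figure D3:**
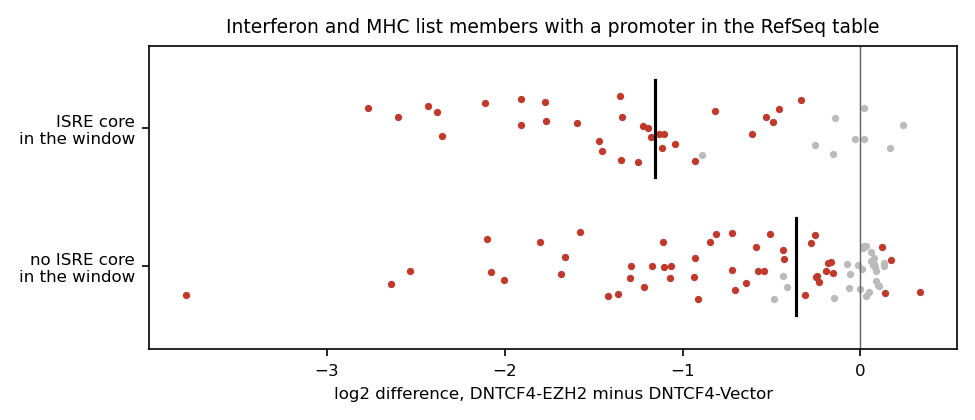
Log2 difference, DNTCF4-EZH2 minus DNTCF4-Vector, of 116 interferon and MHC list members, 40 with and 76 without an ISRE core in the 250 bases before the start, each point a gene, red if called and grey if not, with a bar at the median. The medians are -1.16 with the core and -0.36 without it, and both sets contain called genes. The sets also differ in the lists their genes come from.

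Mitotic genes rose together by less than 2-fold. Of 55 tested G2/M and mitosis genes 53 rose and none fell (median 0.47), and their summed level was 2952 to 3091 CPM in the DNTCF4-Vector libraries and 4117 to 4161 in those of DNTCF4-EZH2. Mki67 (ENSMUSG00000031004, chromosome 7, 135689784 to 135716361, minus strand), the proliferation marker that coats mitotic chromosomes, went from 125, 117 and 122 CPM to 195, 190.0 and 199. Its groups were far apart, with a 1.61-fold rise (log2 0.68, SE 0.04, adjusted p = 2.88e-09). Prc1, which bundles microtubules of the central spindle, went from 79.4, 71.1 and 70.7 CPM to 119, 119 and 122, with DNTCF4-Vector replicate 1 the highest of its group. Ccnb2, a cyclin of mitotic entry, went from 17.6, 15.4 and 16 CPM to 31.4, 28.6 and 28.8, and Racgap1, a cytokinesis regulator, from 93.5, 93.2 and 98.5 to 137, 135 and 138. For all of these the DNTCF4-EZH2 libraries were higher without overlap, by log2 0.70, 0.86 and 0.52. The kinetochore gene Cenpf rose by 0.64 and Ube2c, an enzyme of the anaphase-promoting complex pathway, by 0.78. The 2 members without a call were Plk4, the kinase of centriole duplication (43.9 ± 4.97 and 47.1 ± 2.2 CPM), and the centromere gene Cenpi (28.1 ± 3.96 and 29.1 ± 0.351 CPM).

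Promoters of the called mitotic genes with the smallest p that hold the CHR motif (TTTGAA or its reverse complement TTCAAA) are printed by the same scheme, with every copy in capitals, to show how near the start the motif lies.
Mki67 (chr7:135716432-135716517, minus strand): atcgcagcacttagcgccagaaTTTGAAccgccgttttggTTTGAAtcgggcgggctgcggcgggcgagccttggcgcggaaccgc
Prc1 (chr7:80294406-80294475, plus strand): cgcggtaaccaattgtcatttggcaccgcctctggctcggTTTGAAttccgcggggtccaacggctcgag
Ccnb2 (chr9:70421676-70421761, minus strand): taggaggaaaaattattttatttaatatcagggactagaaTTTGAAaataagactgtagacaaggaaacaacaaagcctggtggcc
Ube2c (chr2:164769860-164769928, plus strand): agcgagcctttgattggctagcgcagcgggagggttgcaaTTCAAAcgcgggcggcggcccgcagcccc
The copies nearest the start begin between 29 and 167 bases before it, and Mki67 has a further copy that begins at 116. CHR was present in 16 of 50 upstream windows of this list (32.0%), against 16.0% of all windows. With the 50 bases after the start included, these shares were 70% and 17.9%, so further copies of the motif lie downstream of it. The stretches printed for Mki67 and Ccnb2 end 52 and 121 bases before the start, and those of Prc1 and Ube2c reach it. The CCAAT box (CCAAT or ATTGG) was present upstream in 70.0% of the list's windows against 33.8% of all. All 14 tested members with CHR upstream rose, as did 30 of the 32 without it there (93.8%). Among all tested genes with CHR, 182 of 1345 rose (13.5%), near the 14.2% of all genes with a promoter.

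The genes of DNA replication did not follow. Of 43 tested G1/S and replication genes 5 rose and 3 fell, with a median of 0.02, and 8 rose without DNTCF4-Vector replicate 1. Pole, the leading-strand polymerase gene, rose by 0.31, the clamp loader gene Rfc5 by 0.31 and the ribonucleotide reductase gene Rrm2 by 0.25, while the helicase gene Mcm6 fell by -0.20. Of 23 cell cycle inhibitor, cyclin D and p53 target genes 6 rose and 3 fell. Cdkn2a, the gene of p16 and p19 that is a known PRC2 target, rose from 269.7, 268 and 276 CPM to 348, 344 and 353 (log2 0.36), with separate groups.

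**Figure D4:**
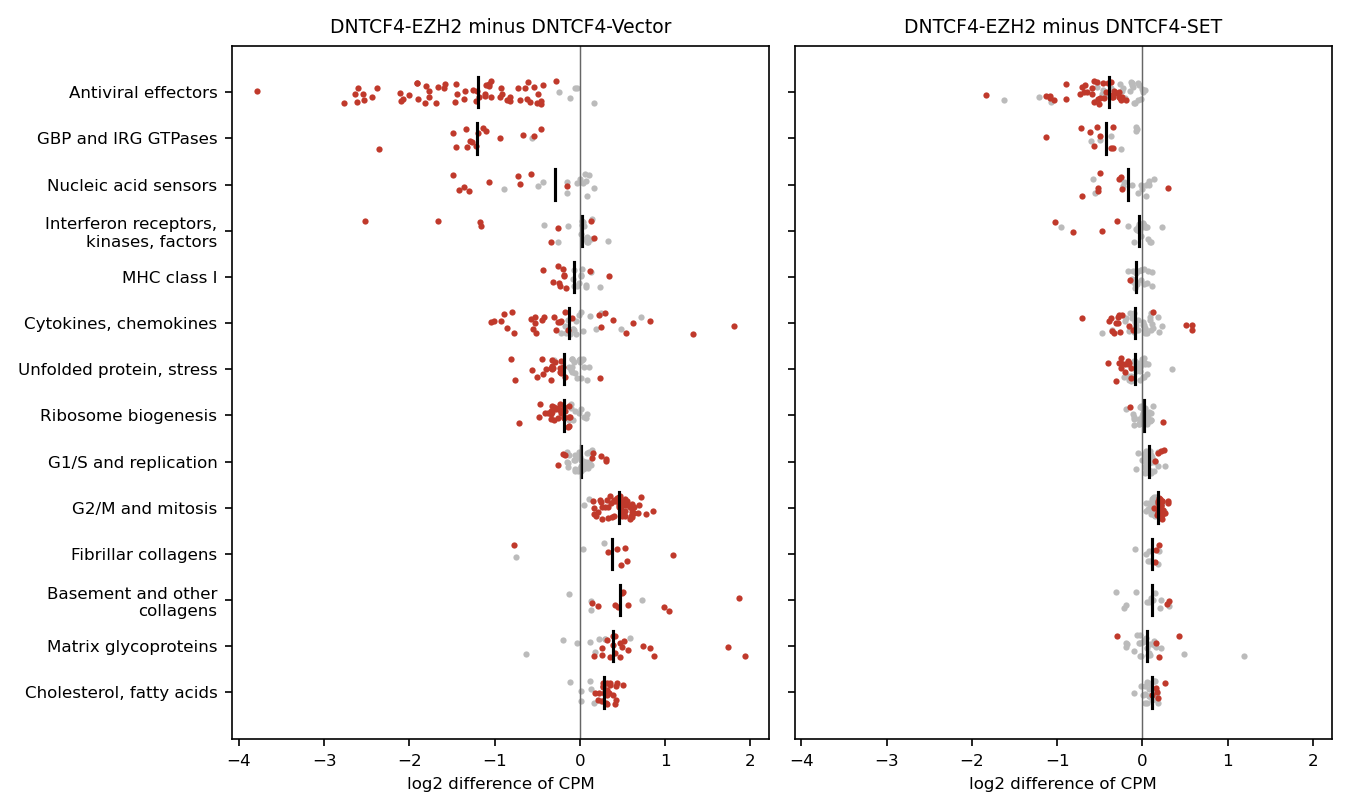
Log2 difference of every tested member of 14 gene lists, DNTCF4-EZH2 minus DNTCF4-Vector on the left and DNTCF4-EZH2 minus DNTCF4-SET on the right, with called genes in red, others in grey and the list median as a black bar. Antiviral effectors and GTPases lie below 0 and G2/M genes above 0 in both panels, with smaller differences on the right.

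Collagen and other matrix genes rose. Among fibrillar and fibril-associated collagens 6 of 10 tested rose and 1 fell (median 0.38), and among basement membrane and other collagens 10 of 14 rose and none fell (median 0.47). Col12a1 (ENSMUSG00000032332, chromosome 9, 79598991 to 79718831, minus strand), a collagen on the surface of fibrils, went from 34.1, 32.9 and 34.8 CPM to 68.9, 73.6 and 75.1, a 2.14-fold rise without overlap (log2 1.10, SE 0.04, adjusted p = 7.64e-11). Col1a2, a chain of type I collagen, went from 168, 173 and 166 CPM to 246, 237 and 258. Col1a1, Col5a1 and Col5a3 rose by 0.53, 0.43 and 0.48, Col24a1 was at 85.6 ± 4.72 and 87.9 ± 2.62 CPM without a call, and the fall was that of Col11a2 (4.75 ± 0.394 to 2.8 ± 0.322 CPM). Col3a1, the type III collagen gene, could not be tested, with 0 counts in DNTCF4-Vector and 2, 1 and 0 in DNTCF4-EZH2.

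In the basement membrane, Col4a1 went from 535, 591 and 572 CPM to 786, 797 and 816 and its partner chain Col4a2 rose by 0.41. Col4a5, a chain of a separate type IV network, went from 14.2, 15.6 and 14.9 CPM to 29.5, 28.9 and 30.6, 1.99-fold higher. Nidogen 1 (Nid1), which links laminin to type IV collagen, went from 285, 293 and 302 CPM to 492, 487 and 490.1 (log2 0.74). In each of these the groups were separate, with DNTCF4-EZH2 higher. Perlecan (Hspg2) rose by 0.82 and the laminin genes Lamc1, Lama5 and Lamb1 by 0.47, 0.41 and 0.32.

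Of 28 tested matrix glycoprotein and proteoglycan genes 19 rose and none fell (median 0.39). Fibronectin (Fn1), a matrix protein that binds cells through integrins, rose by 0.27 from 3853 ± 276 to 4634 ± 46.6 CPM. Tenascin C (Tnc) and decorin (Dcn) rose by 0.56 and 0.52. Prelp (0.128 ± 0.0273 to 0.503 ± 0.106 CPM) and Ogn (0.281 ± 0.0889 to 0.948 ± 0.105) were at low level, and Prelp met the count rule only through the DNTCF4-EZH2 libraries, where it is high. Ecm1, encoding a secreted matrix protein, was at 215, 287 and 269 CPM and then 226, 215 and 233 and was not called (-0.19, adjusted p = 0.0957), but it was called lower without DNTCF4-Vector replicate 1 (-0.31, adjusted p = 7.05e-05) and without a filter on low counts (-0.19, adjusted p = 0.000158). Spp1, encoding osteopontin, was at 2417 ± 125 and 2362 ± 28.7 CPM without a call.

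Of 25 collagen processing genes 15 rose and 4 fell. The enhancer of procollagen cleavage Pcolce2 rose by 0.85, the procollagen proteinase gene Bmp1 by 0.43 and the crosslinking enzyme genes Loxl2 and Loxl4 by 0.45 and 0.42. The falls were the prolyl hydroxylase genes P4ha1, P4ha2 and P4hb (-0.18, -0.17 and -0.13) and Lox (-0.34).

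Matrix proteases and their inhibitors were mixed, with 12 of 25 higher and 6 lower. Mmp10, encoding stromelysin 2, went from 686, 632 and 629 CPM to 229, 225 and 226, a 2.86-fold fall without overlap (SE 0.04, adjusted p = 1.64e-13). Plau, the urokinase gene, fell by -0.66, while the protease inhibitor genes Serpine2 and Timp2 rose by 0.65 and 0.35. The summed level of the list was 17540 to 17800 CPM in DNTCF4-EZH2 and 22080 to 25240 in DNTCF4-Vector.

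**Figure D5:**
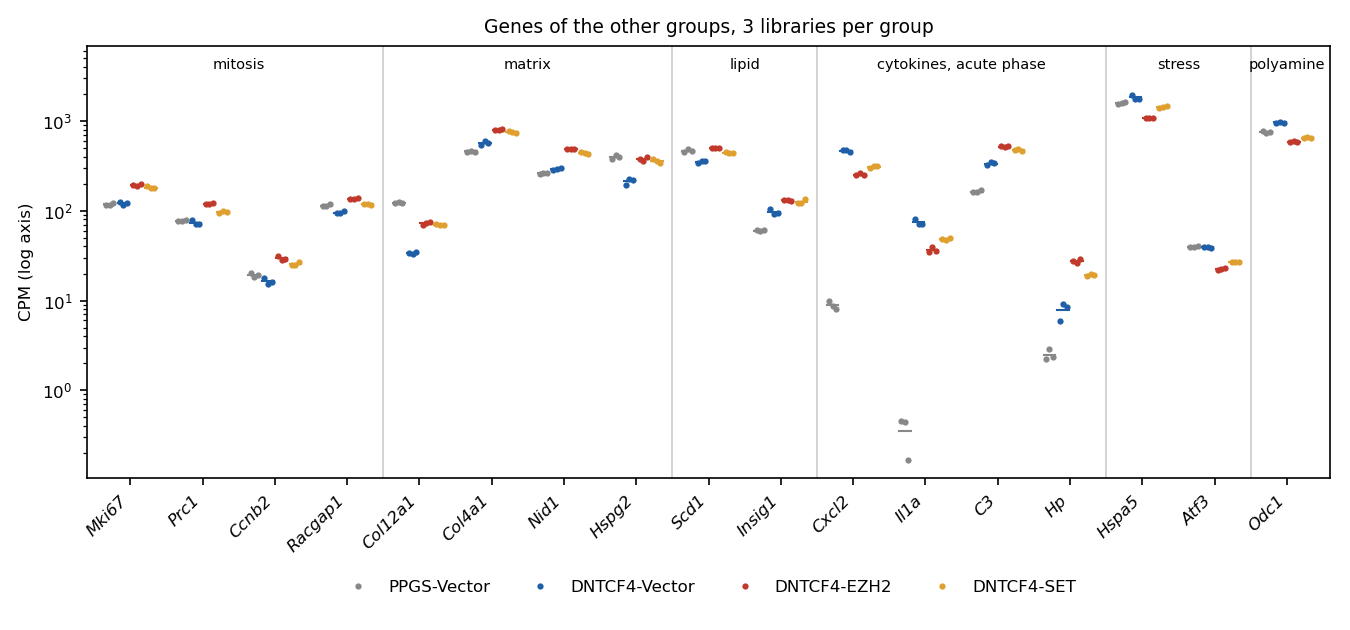
Level of mitotic, matrix, lipid, inflammatory and stress genes (CPM, log axis) in each of the 12 libraries, where points are libraries, short lines are group means and colours are the 4 groups. Mki67, Prc1, Col12a1 and Hp are higher in DNTCF4-EZH2 than in DNTCF4-Vector, and Cxcl2, Il1a, Hspa5 and Odc1 are lower.

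Genes of lipid synthesis rose as well. Of 29 tested cholesterol and fatty acid synthesis genes 22 rose and none fell (median 0.28). Scd1, the desaturase that makes monounsaturated fatty acids, went from 342, 356 and 361 CPM to 505, 501 and 503, with no overlap and a log2 difference of 0.51. Its homologue Scd2, the transcription factor gene Srebf2 and its regulator Insig1 rose by 0.42, 0.35 and 0.43. Of 10 listed adipocyte markers 4 were tested and all 4 rose, with summed levels of the list of 68.5 to 69.8 CPM in DNTCF4-Vector and 118.8 to 122.1 in DNTCF4-EZH2. Adipoq, Cidec and Lep, further markers of that cell type, had at most 2 counts in any library. Lpl, lipoprotein lipase, went from 52.4 ± 1.38 to 95.8 ± 1.45 CPM, and the part of these markers in the lipid result was not tested.

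Inflammatory genes moved both ways. Of 50 tested cytokine, chemokine and NF-kappaB genes 22 fell and 9 rose (median -0.13). Cxcl2, a neutrophil chemokine, went from 479, 477 and 447 CPM to 249, 261 and 248, and in PPGS-Vector it stood at 9.9, 8.8 and 8. Il1a, encoding interleukin 1 alpha, went from 80.0, 70.9 and 71.2 CPM to 35.1, 39.5 and 35.8, a 2.01-fold fall. In both genes DNTCF4-EZH2 was lower without overlap, and for Cxcl2 still far above PPGS-Vector. Hp, encoding the acute phase protein haptoglobin, rose 3.49-fold from 5.87, 9.22 and 8.4 CPM to 27.6, 26.2 and 28.8 (SE 0.11 on the log2 scale, adjusted p = 1.13e-08), with DNTCF4-Vector replicate 1 the lowest library. The acute phase gene Orm1 and the complement gene C3 rose by 1.46 and 0.62. Among immune cell markers, 4 of 20 were tested and 1 fell, S100a8 (48.6 ± 3.12 to 41.9 ± 2.11 CPM), and the summed level was 94.2 to 118.3 CPM in DNTCF4-Vector and 107.5 to 116.7 in DNTCF4-EZH2.

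Genes of the unfolded protein response and of ribosome assembly fell. Of 40 unfolded protein and stress response genes 20 fell and 1 rose (median -0.19). Hspa5, the main chaperone of the endoplasmic reticulum, went from 1969.8, 1754 and 1762 CPM to 1083, 1074 and 1089.9, with DNTCF4-Vector replicate 1 the highest and no overlap (log2 -0.76). The secreted stress proteins Manf and Creld2 and the stress transcription factor Atf3 fell by -0.56, -0.50 and -0.81. Of 37 ribosome biogenesis and Myc target genes 27 fell and none rose (median -0.19). Odc1, the first enzyme of polyamine synthesis, went from 951, 986 and 955 CPM to 586, 595 and 589 (log2 -0.71), and the nucleolar genes Nop56, Dkc1 and Mybbp1a fell by -0.33, -0.33 and -0.28. Of the ribosomal protein genes 5 of 40 fell and none rose (median -0.07), a share of falls near the 12.8% of all genes.

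Of 23 NRF2 target and metallothionein genes 11 rose and 3 fell. The glutathione transferase gene Gsta4 rose by 0.46, Gclm, a subunit of the enzyme that makes the glutathione precursor, by 0.29, and the antioxidant gene Srxn1 by 0.27, while Nfe2l2, the gene of NRF2 itself, was at 193 ± 1.21 and 186 ± 0.722 CPM without a call. Of 40 growth factor and receptor genes 18 rose and 4 fell (median 0.17), though only 11 rose without DNTCF4-EZH2 replicate 1. Flt1, a receptor for vascular endothelial growth factor, rose by 0.43 and Igfbp7, a binder of insulin-like growth factors, by 0.39, and the EGF receptor ligand gene Areg fell by -0.34. Igf1, which met the count rule only through DNTCF4-EZH2, rose from 0.114, 0.0954 and 0.257 CPM to 0.878, 1.01 and 0.675, near the level that 3 counts give in DNTCF4-Vector.

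None of the tested genes reported as EZH2-repressed in cancers was called lower. Of these 17 genes 9 rose (median 0.22), against 13.6% of all genes. They included Sfrp1, a secreted Wnt antagonist (16.4 ± 0.916 to 27.5 ± 0.313 CPM), the protease inhibitor genes Timp2 and Timp3 (0.35 and 0.18), and Cdkn2a, given above. Of 79 developmental transcription factors 26 had enough counts, of which 6 rose and 2 fell. Wt1 and Foxq1 rose by 0.48 and 0.39, and Foxf1 and Irx3 fell by -0.57 and -0.50. Of 39 Hox genes 3 were tested and none was called. Of 25 PRC1 genes 2 rose and 4 fell, and of 19 genes for H3K27 demethylases, H3K36 and DNA methylation enzymes 3 rose and 1 fell. The libraries hold RNA alone, and H3K27me3 at these genes was not analysed here.

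Wnt target genes showed no common direction. Of 15 tested targets 5 rose and 2 fell (median 0.06). Axin2, the general feedback target of beta-catenin, was at 0.758, 0.763 and 0.954 CPM in DNTCF4-Vector and 0.703, 0.849 and 0.911 in DNTCF4-EZH2, and at 2.67, 2.77 and 3.52 in PPGS-Vector. It did not differ by a called amount between the DNTCF4 groups, where it stayed under 1 CPM on average. Among 43 Wnt ligands, receptors and effectors 11 rose and 3 fell, including rises of the ligand gene Wnt7b (0.50), the receptor gene Fzd2 (0.34) and the secreted modulator gene Dkk3 (0.49).

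Beyond the lists, the largest rises among genes that averaged 1 CPM or more in the higher group and had separate groups were, after Ezh2, Sgk2, a kinase gene (0.446 ± 0.0684 to 1.86 ± 0.296 CPM), Dntt, the polymerase that adds bases without a template (0.333 ± 0.075 to 1.1 ± 0.138), Htra3, a secreted protease (1.41 ± 0.309 to 4.13 ± 0.22), and Padi3, a deiminase (0.527 ± 0.104 to 1.47 ± 0.107). Sgk2 rose 4.15-fold. The same 10 rises also held Col25a1, Hp, Orm1, Gstt1 and Pcdhga11, a protocadherin gene. The 10 largest falls were Ifi44, Mx2 and Usp18, given above, the Oas and Ifit family genes Oas1g, Oas2, Ifit3 and Ifit3b (-2.77, -2.61, -2.38 and -2.60), and Slfn4 (-2.64, a gene that met the count rule only through DNTCF4-Vector), Phf11d (-2.53) and Trim30d (-2.43). Predicted gene models were left out of that ranking. Of those, Gm10719, Gm10800 and Gm10801, the first and last of which met the count rule only through DNTCF4-EZH2, singled out after their values were seen, had the largest log2 differences of the table. Gm10801 was at 0.114, 0.127 and 0.0734 CPM in DNTCF4-Vector, 3.34, 3.04 and 2.84 in DNTCF4-EZH2 and 15.5, 40.6 and 18.5 in PPGS-Vector. Among 1750 olfactory and vomeronasal receptor genes too low to test, those with a count numbered 51 to 62 in DNTCF4-Vector, 217 to 288 in DNTCF4-EZH2 and 521 to 732 in PPGS-Vector. Their part in the values of these gene models was not tested, nor was whether counts on such genes come from RNA or from genomic DNA in the libraries.

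Some called genes rest on uneven libraries. Lars2 (mitochondrial leucyl-tRNA synthetase) was at 93.5, 65.6 and 88.5 CPM in DNTCF4-Vector and 60.6, 311 and 178 in DNTCF4-EZH2, and the small nuclear RNA gene Rn7sk at 3.83, 3.05 and 3.38 and 2.93, 18.3 and 8.84. Both were called (adjusted p = 0.0298 and 0.0187) although the groups overlap, and DNTCF4-EZH2 replicate 2 was far above replicate 1 for each. They were singled out after their values were seen.

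The comparison with DNTCF4-SET asks how far the EZH2 libraries differ from the other cells with 2 constructs. It uses the same DNTCF4-EZH2 libraries, so its values are given beside those above and not as separate support. Ezh2 was also raised there, at 555, 512 and 577 CPM, and DNTCF4-EZH2 was slightly lower (log2 -0.28, adjusted p = 0.00223). Between these groups 792 genes were called (5.44%), 425 higher (2.92%) and 367 lower (2.52%) in DNTCF4-EZH2, and 19 differed by 2-fold or more. The majority turned with DESeq2 size factors (383 higher, 407 lower) and with the DESeq2 Wald test (428 and 491). Without 1 library at a time the number was 369 to 463, and over the 6 libraries alone it was 2160.

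Interferon genes were lower in DNTCF4-EZH2 than in DNTCF4-SET as well. Of the 64 antiviral effectors 36 were lower and none higher (median -0.39), as were 9 of 16 GTPase genes (median -0.43). Of the 22 genes of the sensor list 7 were lower, and the kinase gene Ikbke was higher (0.30). Of 23 receptors, kinases and factors 4 were lower. Ifi44 was at 38, 42.4 and 39.5 CPM in DNTCF4-SET, which puts DNTCF4-EZH2 3.57-fold lower (log2 -1.84, SE 0.06, adjusted p = 2.31e-10). Gbp3 was at 55.2, 55.1 and 57.1 CPM and Usp18 at 8.43, 8.43 and 8.17, both between the DNTCF4-Vector and DNTCF4-EZH2 libraries without overlap with either. Irf7 (103, 98.6 and 98.7 CPM in DNTCF4-SET), Isg15 (33 ± 1.26) and Oas1a (19.3 ± 0.769) showed the same order. The falls were thus shared in large part by DNTCF4-SET. Against DNTCF4-Vector, that group had 56 of 64 antiviral effectors lower and 1 higher (median -0.75). Of 16 GTPase genes 14 were lower there and none higher (median -0.66).

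Mitotic genes were higher in DNTCF4-EZH2 than in DNTCF4-SET by a smaller margin, 23 of 55 with none lower (median 0.18). Prc1 was 0.30 higher on the log2 scale (adjusted p = 0.000728), and Mki67, at 187, 180.1 and 177 CPM in DNTCF4-SET, was not called (0.10, adjusted p = 0.145). Fewer matrix genes were called than against DNTCF4-Vector. Of the fibrillar and fibril-associated collagens 3 of 10 were higher (median 0.12), and of the basement membrane and other collagens 2 of 14 (median 0.11). Of the glycoproteins and proteoglycans 3 of 28 were higher and 1 was lower (median 0.05). Over all genes 2.92% were higher and 2.52% lower. Unfolded protein response genes were lower in 14 of 40, with Hspa5 at 1392, 1426 and 1469 CPM in DNTCF4-SET (log2 -0.40). Of 37 ribosome biogenesis genes Nop56 was higher (0.24) and Odc1 lower (-0.15), while both had fallen against DNTCF4-Vector. The largest differences by the naming rule were Ifi44, Chn1, a Rac GTPase-activating protein (-1.60), Phf11d (-1.14), Gbp3 (-1.13) and Nat8l, an acetyltransferase of aspartate (-1.12), on the lower side. On the higher side they were Adam1a (1.16), Tcea2 (1.15), Gsta2 (1.01), Rab26 (0.96) and Slc6a2 (0.92). Set against DNTCF4-Vector, DNTCF4-SET also had 40 of 55 mitotic genes higher and none lower (median 0.28). Basement membrane and other collagens were higher in 10 of 14 and lower in 1, and glycoproteins and proteoglycans higher in 17 of 28 and lower in 2. Ribosome biogenesis genes were lower in 24 of 37 and higher in none. The share over all genes was not computed for that comparison.

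Set beside PPGS-Vector, the cells with both DNTCF4 and EZH2 differed in 8394 genes (57.6%), 4356 higher (29.9%) and 4038 lower (27.7%), with 1443 at 2-fold or more. The majority turned without a filter on low counts (4528 higher, 5908 lower) and, by a small margin, with filterByExpr (4321 and 4367). These groups differ in both constructs, so the parts of each cannot be told apart in this comparison. Ifi44 stood at 148, 146 and 147 CPM in PPGS-Vector, close to DNTCF4-Vector, so that DNTCF4-EZH2 was 13.2-fold lower than it too. For Irf7, DNTCF4-Vector was already lower than PPGS-Vector (log2 -0.92), and DNTCF4-EZH2 lower still (-2.58). Of the 64 antiviral effectors 59 were lower than in PPGS-Vector and 1 higher (median -1.39).

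Collagens showed another order. Col1a2 was at 804, 849 and 833 CPM in PPGS-Vector, so its level in DNTCF4-EZH2 was above DNTCF4-Vector and still 3.35-fold below PPGS-Vector. Col12a1 likewise lay between, at 122, 126 and 122 CPM in PPGS-Vector. Col4a1 and Nid1 were instead higher in DNTCF4-EZH2 than in either vector group, with 457 ± 9.04 and 261 ± 4.09 CPM in PPGS-Vector. Of the 55 mitotic genes 50 were higher than in PPGS-Vector and none lower (median 0.45), with Mki67 there at 116, 117 and 121 CPM, beside DNTCF4-Vector.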

How the data were processed

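The authors deposited expected counts per gene (estimated read counts, not normalised, already whole numbers) for 12 RNA-seq libraries. Per the submitters' processing notes, the tools were STAR 2.7.8a, RSEM 1.3.3, cutadapt 2.3, FastQC 0.11.8 and DESeq2, on the build GRCm38. RSEM divides a read with several possible genes between them, and use of strand by the counting is not given in the sources. The authors' table of rlog values was not used.

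Groups and replicate numbers came from the titles. Genes with at least 10 counts in at least 3 of the 6 libraries were fitted with edgeR 4.0.16 (R 4.3.3): TMM scaling, 1 fit over 12 libraries with a mean per group (8 residual degrees of freedom, biological coefficient of variation 5.11%), the two-sided quasi-likelihood test and Benjamini-Hochberg adjustment over all tested genes, with a threshold of 0.05. SE is the log2 difference divided by the root of F. The fit was tested on simulated data. Genes of 42 lists (41 with a tested member, 1013 members tested) and RefSeq promoters of 27025 genes were matched by symbol or identifier, and coordinates come from GENCODE on GRCm38. Members and lists were chosen with earlier results of these data known. Named genes are the construct genes, the 10 largest rises and 10 largest falls among called genes with separate groups and at least 1 CPM without predicted gene models, the 5 largest each way against DNTCF4-SET, up to 4 members with the smallest p per list, and any member of the interferon, PRC2, collagen and matrix lists. Some list members are not reported here by name. Other genes named as uncalled or as single members of a count were named after their values were seen. Alternatives were DESeq2 size factors, the DESeq2 1.42.0 Wald test, other filters, only the 6 libraries compared, a replicate block, and each library left out.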

Additional observations from a re-analysis of the deposited data

Results flagged for a closer look

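A signal appeared in genes outside the tested table. Of 1750 olfactory and vomeronasal receptor genes with too few counts to be tested, which are normally silent outside sensory tissue, 288, 228 and 217 had at least 1 count in DNTCF4-EZH2 replicates 1, 2 and 3, against 51, 62 and 58 in DNTCF4-Vector. The fewest in a DNTCF4-EZH2 library, 217, were thus above the most in a DNTCF4-Vector library. PPGS-Vector had 521, 732 and 579 and DNTCF4-SET 296, 446 and 393. The counts on these genes summed to 413 to 564 per DNTCF4-EZH2 library and 121 to 162 per DNTCF4-Vector library. Their part in the calls of genes at low level was not tested, and whether they come from RNA or from genomic DNA in the libraries was not tested either.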

How the results depend on the processing

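Against DNTCF4-Vector the number of called genes was 3843 with DESeq2 size factors, 3635 with the DESeq2 Wald test, 3971 without a filter, 3841 with filterByExpr, 3865 with a filter at a mean of 1 CPM (chosen after seeing the data) and 2616, with 1240 lower, over the 6 libraries compared alone, where the spread is estimated from fewer samples. Of the 3850 calls, 2591 were among those 2616. Leaving out 1 library gave 2833 (without DNTCF4-EZH2 replicate 3) to 4552 calls (without DNTCF4-Vector replicate 1). The majority of higher calls turned without each DNTCF4-Vector library in turn (49.7%, 49.1% and 49.7% higher). Rises among G1/S genes ranged from 4 to 8 and among growth factor genes from 11 to 16 over these fits, which test with fewer samples. Against DNTCF4-SET, leaving out 1 library gave 369 to 463 calls, 189 to 267 higher and 166 to 196 lower, and the 6 libraries alone gave 2160, 1098 higher and 1062 lower; the cause of the latter was not tested. Over the whole 300-base promoter window, CHR was present in 70% of G2/M promoters and 17.9% of all, and the ISRE core in 3.44% of all, since the window also takes in 50 bases after the start.

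Same-numbered replicates did not deviate together (correlations of 0.13, -0.10 and 0.04 between DNTCF4-Vector and DNTCF4-EZH2), so the numbers are not taken as pairs; with a replicate block the calls were 3686 (3600 shared), 657 against DNTCF4-SET and 8277 against PPGS-Vector. Of 258 named or listed genes followed, none called in the main fit changed direction. Changes of direction of uncalled genes were not counted. In some setting 22 of the 258 crossed the threshold. Among them Ifngr2, Tgtp1, Eed, Col8a1 and Tnxb lost their call, and Tcf7l2, Ecm1, Ifitm2, Sting1, Tlr4, Phf19, Ezh1, Mtf2, Jak2 and Tyk2 gained one. The majority of higher calls also turned against DNTCF4-SET with DESeq2 size factors and the DESeq2 Wald test (48.5% and 46.6% higher). Against PPGS-Vector it turned without a filter (43.4%), with filterByExpr (49.7%), over the 6 libraries alone (48.9%) and without PPGS-Vector replicate 1 or 3 or DNTCF4-EZH2 replicate 1 (49.8%, 49.6% and 49.7%).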
